A study of Mus musculus with 6 samples.

Results

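Fc gamma receptors and the complement proteins that coat targets are the means by which a macrophage recognises material marked with antibody or complement. 9 genes of this system were chosen by name: the 4 mouse Fc gamma receptor genes Fcgr1, Fcgr2b, Fcgr3 and Fcgr4, the signalling chain gene Fcer1g, the C3a receptor gene C3ar1 and the 3 chains of C1q, C1qa, C1qb and C1qc. All 9 were found among the 19575 features tested, each by 1 probe whose name in the scanner files is the gene, and every probe was well above background on all 6 arrays. C1q is not a receptor but the soluble molecule that starts the classical complement pathway.

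Macrophages were grown for 7 days from the bone marrow of C57BL/6 mice in medium with 10% serum and 20% L929-conditioned medium as the source of M-CSF. The 3 ADP samples were exposed to 100 µM ADP, a nucleotide that damaged and activated cells release, for 6 h, and the 3 control samples received a 6 h control treatment that the labels do not describe further. Per the labels, the samples come from separate experiments with different donor mice. Each RNA was labelled with Cy3 and read on a one-colour microarray, and the comparison asks how transcripts differ after ADP.

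The activating receptors encoded by Fcgr1, Fcgr3 and Fcgr4 bind IgG and signal through the shared gamma chain encoded by Fcer1g, which carries an ITAM, a motif that recruits the kinase Syk once it is phosphorylated. Fcgr2b encodes the single inhibitory Fc gamma receptor of the mouse, which carries an ITIM instead and recruits the lipid phosphatase SHIP-1 (Inpp5d) to dampen these signals. C1q is assembled from A, B and C chains, binds IgG and IgM in immune complexes, and is made largely by macrophages. C3ar1 encodes a G-protein-coupled receptor for the anaphylatoxin C3a.

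Slide 1 carried ADP 1 with controls 1 and 2, and slide 2 carried ADP 2 and ADP 3 with control 3. Of the 59305 non-control spots, 50.3% to 51.9% were well above background on each array, and none was saturated. The 75th percentile signal ran from 455 to 549. Precision is limited by having 3 arrays in a group. The slide was the main axis of variation between arrays. Principal component 1 (44.9% of the variance) ran from -33.9 to -23.2 on slide 1 and from 24.1 to 34.7 on slide 2. Principal component 2 (31.2%) ran from -31.4 to -12.0 with ADP and from 9.8 to 32.0 in controls. Of 12 macrophage marker names listed, Fcgr1 and 1 older name among them, 11 were on the array and all 11 were well above background on all 6 arrays. Below, a level is the log2 signal of a probe relative to the 75th percentile of its array, and a difference is ADP minus control on that scale. Levels of different probes are not compared with each other. In bulk RNA, fewer cells of a type and less RNA per cell cannot be told apart.

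The probes that made the measurements are shown because each gene rests on a single 60-base oligo, and coordinates are those of the files, on mouse build mm9. For 3 of them, which lie in coding sequence, the whole probe is given 5′ to 3′ in lower case with no base singled out.
Fcgr3: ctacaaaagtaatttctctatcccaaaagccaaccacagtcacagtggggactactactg
C1qa: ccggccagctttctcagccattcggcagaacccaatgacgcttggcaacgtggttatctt
C1qb: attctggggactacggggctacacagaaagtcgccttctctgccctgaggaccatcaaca

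For the 3 probes whose values the account of Fcgr2b, C3ar1 and Fcgr1 turns on, the first 30 bases are given in the same way.
Fcgr2b: acttctgtgagtcctgaaaccaacagacac
C3ar1: tgccatcatctcagtgtagcacacacaatc
Fcgr1: ccacatgtgcagggcatgcagacacagaca

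The Fcgr2b probe lies at chr1:172890988-172891047 on the minus strand and is assigned in the files to both listed RefSeq transcript variants of the gene, so variants cannot be told apart. The Fcgr4 probe, on the plus strand at chr1:172959738-172959797, lies 68.7 kb further on, and the Fcgr3 probe, on the minus strand at chr1:172984129-172984188, another 24.3 kb on. Fcer1g is read at chr1:173159794-173159853, which is 175.6 kb beyond Fcgr3. The C1q probes all lie on the minus strand within a short stretch of chromosome 4, C1qb at chr4:136436578-136436637, C1qc 9.1 kb on at chr4:136445766-136445825 and C1qa a further 6.6 kb on at chr4:136452409-136452468. The Fcgr1 probe is at chr3:96086839-96086898 and that of C3ar1 at chr6:122798222-122798281, both on the minus strand. The extracellular parts of mouse Fcgr2b and Fcgr3 are known to be alike in sequence, and binding of the Fcgr3 probe to Fcgr2b RNA was not tested. The Fcgr2b and C1qc probes are each printed on 10 spots of every array, and the other 7 probes on 1 spot.

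None of the 9 genes differed between ADP and control macrophages at a Benjamini-Hochberg adjusted p under 0.05 in the limma fit. The fit called 0% of all 19575 features at that threshold, so this count sets the 9 apart from nothing. At an unadjusted p under 0.05 there were 2 of the 9, Fcgr2b and C3ar1, both lower with ADP, and none higher, where 6.18% of all features were lower and 6.55% were higher (12.7% in either direction, 2492 features). With the slide as a block the same 2 of the 9 were lower at that p and none was higher, against 24.3% of all features, 13.6% lower and 10.8% higher. The same 2 genes were the only ones of the 9 whose ADP and control arrays did not overlap, against 19.4% of all features, 9.72% lower and 9.67% higher. Within both slides Fcgr2b and C3ar1 were lower, as were 32.4% of all features, and Fcgr4 was higher, as were 29.7%. The sign turned between the slides for the other 6 genes, and for 38% of all features. The median difference of the 9 was 0.05, against 0.0044 over all features, and 3 of the 9 were below 0, against 49.2% of all features. Left unscaled, the arrays gave 1228 higher and 326 lower features at the same p, in place of 1282 and 1210, and the median of all features was then 0.08.

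**Figure D1:**
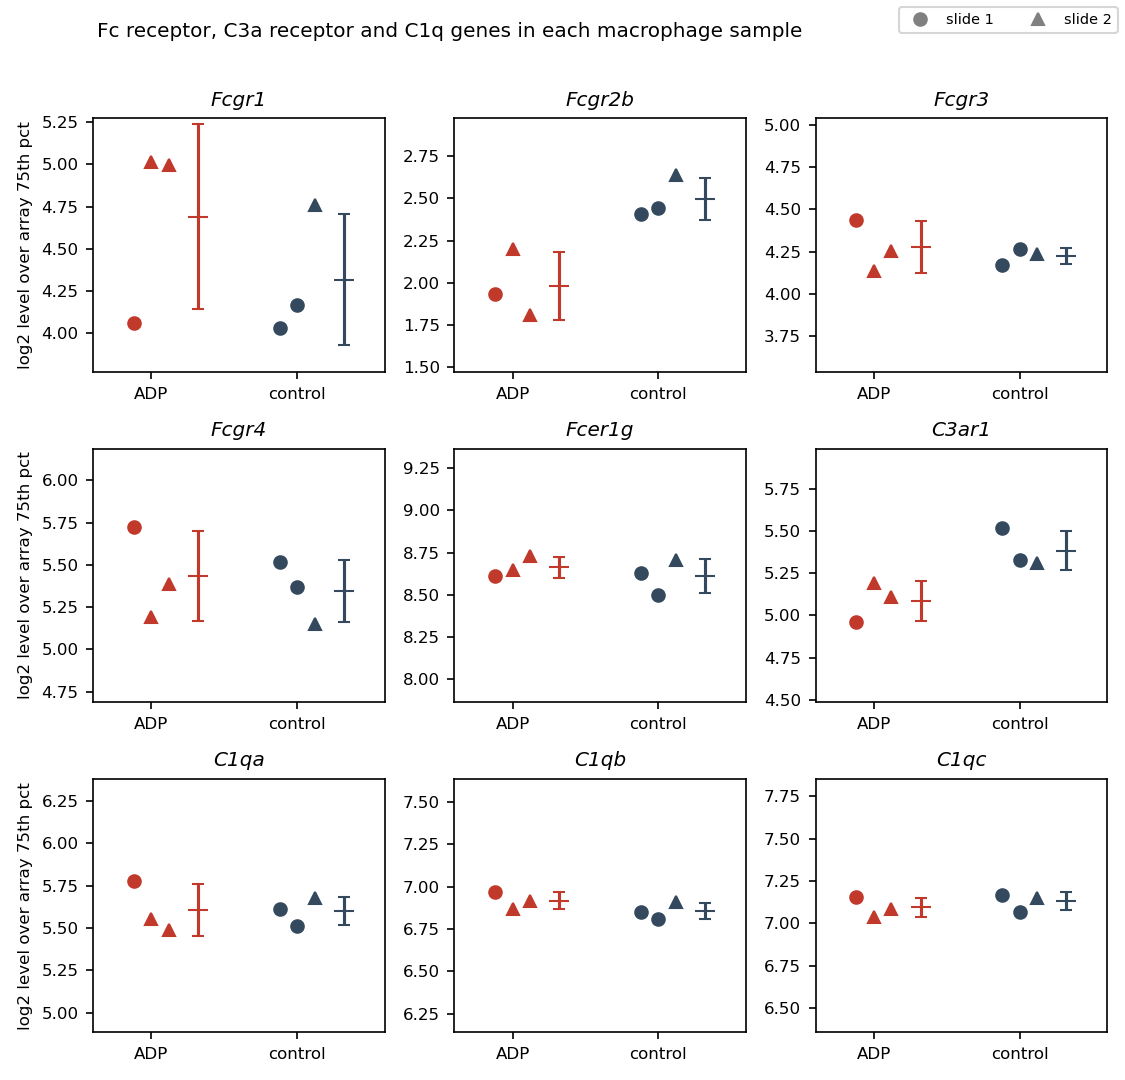
Log2 level of each gene, scaled to the 75th percentile, with ADP samples left and control samples right in each panel. Each symbol is 1 array (circles slide 1, triangles slide 2), bars are mean ± SD of 3 arrays, and every panel spans 1.5 log2 units around its own data. The groups are apart for Fcgr2b and C3ar1, and Fcgr1 separates by slide.

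Fcgr2b, the inhibitory receptor gene, showed the smallest p of the 9. Its level was 1.93, 2.20 and 1.81 in ADP 1, 2 and 3, against 2.41, 2.44 and 2.64 in controls 1, 2 and 3. All 3 ADP arrays lay below all 3 control arrays, with ADP 2 the closest to them. The means were 1.98 ± 0.20 with ADP and 2.50 ± 0.12 in controls (SD, n = 3 each), a difference of -0.52 ± 0.14 (log2, SE), or 0.699 times the control level, with a 95% interval of -0.85 to -0.18. That difference did not pass over all features (limma, adjusted p = 0.273), although 3.81% of all features had a difference as low or lower.

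The difference of Fcgr2b had the same sign on both slides, at -0.49 within slide 1 and -0.63 within slide 2. With the slide as a block it was -0.56 ± 0.13, and the adjusted p was 0.0830, in a fit that called 0% of all features. It passed in 1 setting run, the slide as a block with intensity-trended, robust variances (adjusted p = 0.0243), where 9.91% of all features passed, 5.38% lower and 4.52% higher. Before any scaling between arrays, the mean processed signal of the Fcgr2b spots was 1738, 2506 and 1922 in ADP 1, 2 and 3 and 2417, 2524 and 3415 in controls 1, 2 and 3. On that unscaled signal the groups overlapped, as ADP 2 read above control 1, and the difference was -0.44 (limma, adjusted p = 0.699).

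Repeat spots show how exactly each array was read, though spots of 1 array are not replicates of a condition. After spots marked as outliers were left out, Fcgr2b had 30 spots on ADP arrays and 27 on control arrays. The ADP spots ran from 1.79 to 2.34 and the control spots from 2.38 to 2.66, so all 30 ADP spots lay below the lowest control spot. Within an array the SD over spots was between 0.013 and 0.069, the widest on ADP 2, and smaller than the SD between arrays of either group. The repeat spots of C1qc, in contrast, ran from 7.00 to 7.21 on ADP arrays and from 7.02 to 7.21 on control arrays, 27 and 28 spots that covered nearly the same range.

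**Figure D2:**
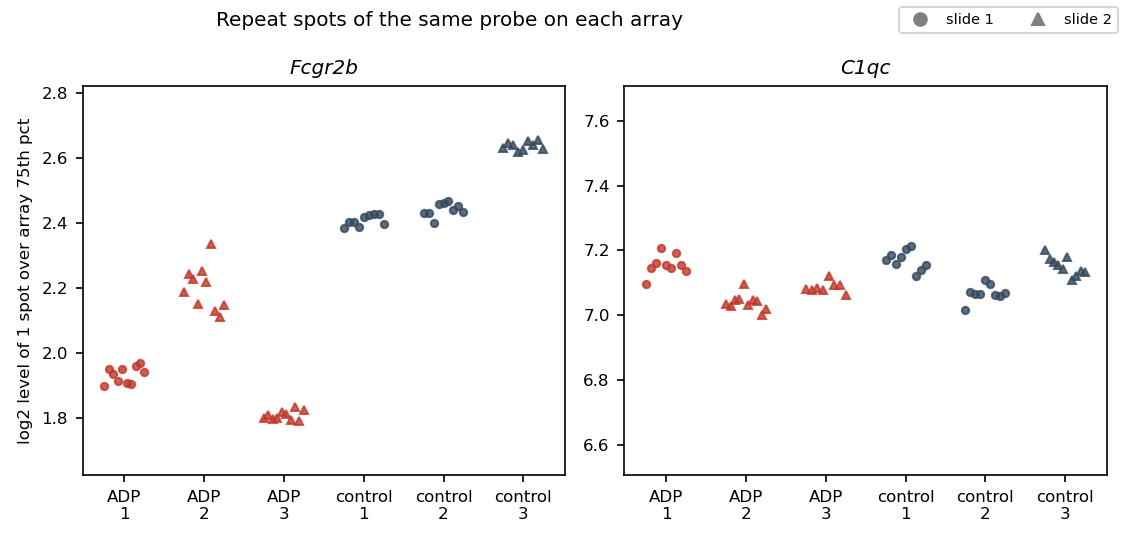
Log2 level of each repeat spot of the Fcgr2b probe (left) and of the C1qc probe (right), by array, with ADP arrays left of control arrays. Each symbol is 1 spot (circles slide 1, triangles slide 2), and both panels span 1.2 log2 units. The 30 ADP spots of Fcgr2b sit below its 27 control spots, and those of C1qc overlap.

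C3ar1, the C3a receptor gene, had a smaller difference in the same direction. Its level was 4.96, 5.19 and 5.11 in ADP 1, 2 and 3, against 5.51, 5.32 and 5.31 in controls 1, 2 and 3. The ADP arrays all lay below the control arrays, by 0.12 between the nearest pair, ADP 2 and control 3. The means were 5.09 ± 0.12 with ADP and 5.38 ± 0.11 in controls (SD, n = 3 each), a difference of -0.30 ± 0.12 (log2, SE) with a 95% interval of -0.58 to -0.02. It did not pass over all features (limma, adjusted p = 0.370), and 12.4% of all features had a difference as low or lower. Within slide 1 the difference was -0.46, and within slide 2 it was -0.16. Before any scaling between arrays, the C3ar1 spot read 14150, 19931 and 18966 in ADP 1, 2 and 3. It read 20805, 18608 and 21792 in controls 1, 2 and 3. On that unscaled signal the groups overlapped, as ADP 2 and ADP 3 read above control 2. The unscaled difference was -0.22 (limma, adjusted p = 0.886).

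The activating receptor gene with the widest spread was Fcgr1, the high-affinity IgG receptor gene. It read 4.06, 5.01 and 4.999 in ADP 1, 2 and 3, against 4.03, 4.16 and 4.76 in controls 1, 2 and 3. The arrays grouped by slide rather than by treatment: the 3 arrays of slide 1 were at 4.06 with ADP and 4.03 and 4.16 in controls, and the 3 of slide 2 at 5.01 and 4.999 with ADP and 4.76 in the control. In a fit with both terms the slides differed by 0.80, slide 2 minus slide 1, and 6.64% of all features had a gap between slides as large in either direction. The ADP difference was 0.37 ± 0.32 (log2, SE; limma, adjusted p = 0.701) without the slide in the model and 0.11 ± 0.10 with it (adjusted p = 0.567). It was -0.04 within slide 1 and 0.25 within slide 2, and without ADP 1 it was 0.69. The 95% interval of the first, -0.39 to 1.13, holds changes of either sign.

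The low-affinity activating receptor genes were read more evenly. Fcgr3, which encodes Fc gamma RIII, read 4.44, 4.14 and 4.25 in ADP 1, 2 and 3, against 4.17, 4.27 and 4.24 in controls 1, 2 and 3. The control values lay inside the range of the ADP values, and the difference was 0.05 ± 0.12 with a 95% interval of -0.23 to 0.33 (limma, adjusted p = 0.884). Fcgr4, which encodes the receptor for IgG2a and IgG2b that mouse myeloid cells carry, read 5.72, 5.19 and 5.39 in ADP 1, 2 and 3, against 5.52, 5.37 and 5.15 in controls 1, 2 and 3. The groups overlapped, and the difference was 0.09 ± 0.17 (95% interval -0.33 to 0.50, adjusted p = 0.865). With the slide as a block it was 0.21 ± 0.10 (adjusted p = 0.267), at 0.28 within slide 1 and 0.14 within slide 2. Without ADP 1 the difference turned to -0.029 for Fcgr3 and -0.056 for Fcgr4, and without control 3 it turned to -0.0087 for Fcgr4.

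Fcer1g, the gamma chain gene through which these receptors signal, read 8.61, 8.65 and 8.73 in ADP 1, 2 and 3, against 8.63, 8.50 and 8.70 in controls 1, 2 and 3. These 6 values spanned 0.23 in all, and the groups overlapped. The difference was 0.05 ± 0.10 (log2, SE; limma, adjusted p = 0.876), and its 95% interval of -0.20 to 0.30 holds changes of up to 1.23-fold upward. The sign depended on the scaling, with -0.12 after quantile normalization and 0.13 without scaling.

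Because the interval lay below 0 for Fcgr2b and included 0 for the activating chain genes, the ratio of each to Fcgr2b within an array was taken, as a description with no test, after the single values had been seen. Relative to the control mean, the log2 ratio of Fcgr3 to Fcgr2b was 0.78, 0.21 and 0.72 in ADP 1, 2 and 3, against 0.03, 0.10 and -0.13 in controls 1, 2 and 3. That of Fcer1g to Fcgr2b was 0.56, 0.33 and 0.81 in ADP 1, 2 and 3, against 0.11, -0.06 and -0.05 in controls 1, 2 and 3. In both cases every ADP array was above every control array, with ADP 2 the lowest of the 3. Fcgr2b by itself did not overlap either, as for 9.72% of all features that were lower without overlap. How many other genes separate in a ratio to Fcgr2b was not counted. For Fcgr4 the ratio was 0.94, 0.14 and 0.73 with ADP, against 0.26, 0.08 and -0.34 in controls, and ADP 2 lay below control 1. For Fcgr1 it was 0.31, 0.99 and 1.37 with ADP, against -0.20, -0.10 and 0.30 in controls, with ADP 1 just above control 3. These ratios share 1 denominator and are not independent of the Fcgr2b values above. They show unequal change between probes, not how much of each receptor is present.

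**Figure D3:**
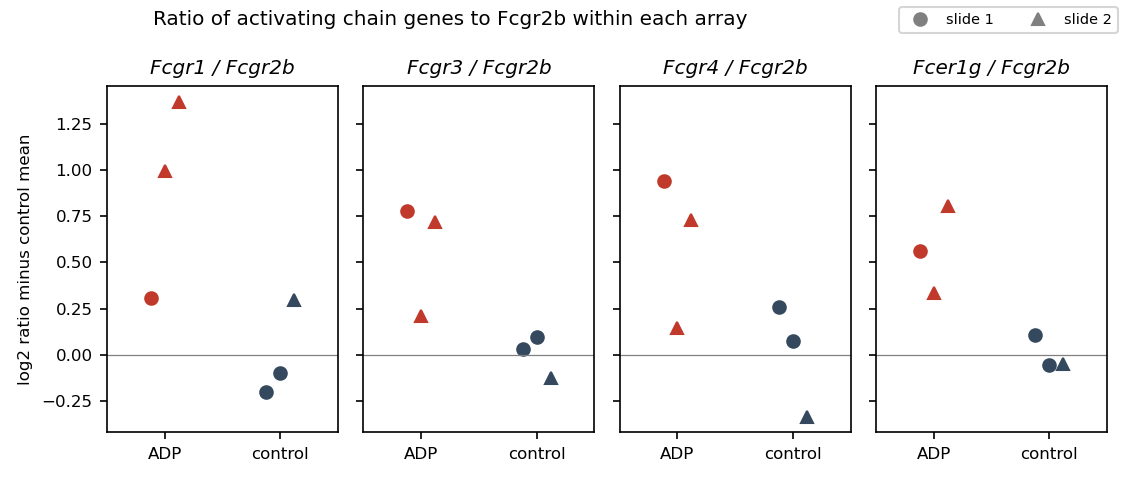
Log2 ratio of Fcgr1, Fcgr3, Fcgr4 and Fcer1g to Fcgr2b within each array, minus the mean of the 3 control arrays, with ADP left and control right. Each symbol is 1 array (circles slide 1, triangles slide 2). The mean over ADP arrays is 0.89, 0.57, 0.61 and 0.57, and only the Fcgr4 panel has overlapping groups. The groups of Fcgr2b, the shared denominator, do not overlap by themselves.

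The 3 C1q chain genes, which neighbour one another, had differences near 0. C1qa read 5.78, 5.55 and 5.49 in ADP 1, 2 and 3, against 5.61, 5.51 and 5.68 in controls 1, 2 and 3. C1qb read 6.97, 6.87 and 6.92 in ADP 1, 2 and 3, against 6.85, 6.81 and 6.91 in controls 1, 2 and 3. C1qc read 7.15, 7.04 and 7.09 in ADP 1, 2 and 3, against 7.17, 7.07 and 7.15 in controls 1, 2 and 3. The groups overlapped for each chain, and the SD within a group was between 0.05 and 0.15.

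The differences were 0.0052 ± 0.12 for C1qa, 0.06 ± 0.10 for C1qb and -0.04 ± 0.10 for C1qc (log2, SE; limma, adjusted p = 0.990, 0.828 and 0.903). Their 95% intervals ran from -0.28 to 0.29, from -0.17 to 0.29 and from -0.27 to 0.20, so changes inside those bounds could not be told from no change. Within slide 1 the differences were 0.22, 0.14 and 0.035 for C1qa, C1qb and C1qc, and within slide 2 they were -0.16, -0.014 and -0.09. Quantile normalization gave -0.054, -0.062 and -0.17, and no scaling gave 0.08, 0.14 and 0.041, so no direction is given for C1q. Relative to its control mean, the log2 ratio of C1qb to C1qc was 0.09, 0.10 and 0.11 in ADP 1, 2 and 3, against -0.05, 0.02 and 0.03 in controls 1, 2 and 3. The groups did not overlap, as for 19.4% of all features by themselves, and the share among ratios of genes was not counted. The ratio of C1qa to C1qb averaged -0.06 ± 0.12 over ADP arrays (SD, n = 3) and that of C1qa to C1qc 0.04 ± 0.11. Both overlapped between the groups and turned sign between the slides, at 0.08 and -0.15 for C1qa to C1qb and 0.18 and -0.07 for C1qa to C1qc within slides 1 and 2.

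**Figure D4:**
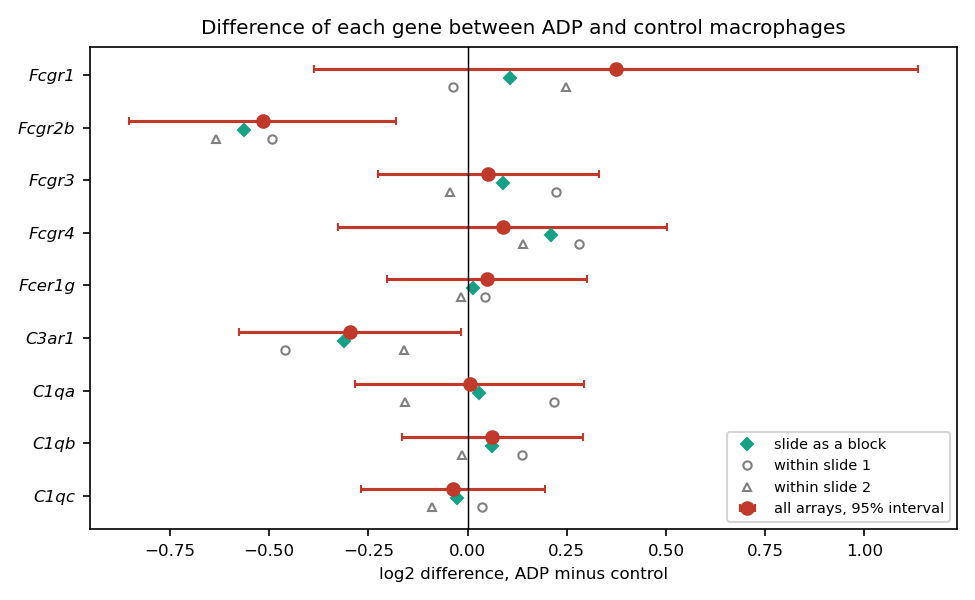
Log2 difference, ADP minus control, of each of the 9 genes. Filled circles with bars are estimates over all arrays with 95% intervals, diamonds the estimates with the slide as a block, and open circles and triangles the differences within slides 1 and 2. The interval lies below 0 for Fcgr2b and C3ar1 and includes 0 for the other 7 genes.

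Promoter windows of Fcgr2b and C3ar1 are shown because these genes read lower together. The windows, from RefSeq on build GRCm38.p6, hold 250 bases before to 50 after the annotated start and were matched for 8 of the 9 genes, all but C1qa. Both strands were searched for GGAAGT, the core bound by ETS factors such as the macrophage regulator PU.1, and for the longer PU.1 sequence GAGGAAGT. The AP-1 sequence TGANTCA, the STAT sequence TTCNNNGAA and the E-box CACGTG were searched too. Capitals mark the GGAAGT match (read on the opposite strand) in Fcgr2b, at chr1:170976022-170976321 on the minus strand, and the TGANTCA match in C3ar1, at chr6:122856108-122856407 on the minus strand.
Fcgr2b: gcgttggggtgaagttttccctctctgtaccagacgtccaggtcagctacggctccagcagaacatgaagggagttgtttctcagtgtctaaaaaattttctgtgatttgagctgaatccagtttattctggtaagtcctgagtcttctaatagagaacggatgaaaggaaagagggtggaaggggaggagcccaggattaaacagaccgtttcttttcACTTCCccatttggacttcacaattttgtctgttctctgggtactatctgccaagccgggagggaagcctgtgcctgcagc
C3ar1: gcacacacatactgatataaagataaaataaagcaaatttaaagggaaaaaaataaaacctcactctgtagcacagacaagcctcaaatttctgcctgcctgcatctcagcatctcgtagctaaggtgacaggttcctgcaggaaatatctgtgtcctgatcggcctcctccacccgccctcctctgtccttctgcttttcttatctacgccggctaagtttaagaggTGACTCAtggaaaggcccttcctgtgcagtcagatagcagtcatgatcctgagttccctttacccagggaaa

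The first base of the match lay at position -31 relative to the start in Fcgr2b and at -22 in C3ar1. GGAAGT was also present in the windows of Fcgr4, Fcgr1, C1qb and C1qc, and it occurs in 23.8% of all 32851 promoter windows. The longer GAGGAAGT occurs in 3.2% of all windows and was found in Fcgr4 and C1qc, but not in Fcgr2b. CACGTG occurs in 7.15% of all windows and was found in none of the 8 genes. TGANTCA occurs in 7.81% of all windows and was found in no other of the 8 genes. TTCNNNGAA occurs in 8.30% of windows and was found in Fcgr1, a gene known to respond to interferon gamma, and in no other of the 8. A match describes letters in a window and not a bound site.

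Genes around the receptors were read from lists of known members, none of which passed over all features. Of 27 measured kinase and adaptor genes of Fc receptor signalling, 1 was higher and 4 were lower at an unadjusted p under 0.05, where 6.55% of all features were higher and 6.18% lower. Their median difference was -0.06, against 0.0044 over all features. The smallest p belonged to Lat2, an adaptor of immune receptor signalling, at 3.36, 3.12 and 3.09 in ADP 1, 2 and 3, against 3.67, 3.54 and 3.64 in controls 1, 2 and 3, a difference of -0.43 ± 0.12 (limma, adjusted p = 0.273). The Src-family kinase gene Fgr differed by -0.55, the PI3-kinase gene Pik3cg by -0.51 and Malt1 by -0.28, while the kinase gene Fyn differed by 0.41. Syk, the kinase that binds the ITAM, differed by 0.11 ± 0.17. These genes other than Lat2 were chosen after their values were seen.

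On the inhibitory side, 3 of 17 measured phosphatase and ITIM receptor genes were higher and 2 were lower at an unadjusted p under 0.05, against 6.55% and 6.18% of all features, with a median of -0.08. Cd300a, which encodes an ITIM receptor for phospholipids, had the smallest p, at 1.84, 1.06 and 1.54 in ADP 1, 2 and 3, against 0.52, 0.57 and 0.64 in controls 1, 2 and 3. Its difference of 0.90 ± 0.20 (limma, adjusted p = 0.261) ran opposite to that of Fcgr2b, the inhibitory Fc receptor. Inpp5d, the SHIP-1 gene named above for its recruitment by Fcgr2b, differed by -0.08 ± 0.10 and was singled out after its values were seen.

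Among 15 measured complement receptor and C1q binding protein genes, a list that includes C3ar1, 4 were lower and 0 higher at an unadjusted p under 0.05, against 6.18% and 6.55% of all features, with a median of -0.14. Lair1 is on this list and on the inhibitory list above, and is counted among the lower genes of both. C1qbp, which encodes a mitochondrial protein first found as a binder of C1q heads, had the smallest p, at 3.90, 3.97 and 3.69 in ADP 1, 2 and 3, against 4.30, 4.18 and 4.29 in controls 1, 2 and 3, a difference of -0.40 ± 0.12 (limma, adjusted p = 0.284). C5ar1, the receptor gene for the related anaphylatoxin C5a, read 4.03, 4.30 and 4.04 in ADP 1, 2 and 3, against 4.58, 4.40 and 4.58 in controls 1, 2 and 3. Its groups did not overlap, as for 9.72% of all features that were lower without overlap, and it differed by -0.40 ± 0.12, while C5ar2, the other C5a receptor gene, differed by 0.37 ± 0.17. The complement receptor 3 genes Itgam and Itgb2 differed by -0.14 ± 0.14 and 0.07 ± 0.12. Lair1, C5ar1, C5ar2, Itgam and Itgb2 were chosen after their values were seen.

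Of 23 listed complement component genes 10 passed the filter on dim probes. Hc, which encodes complement C5, had the smallest p of them, but no control array read its probe well above background. It passed the filter through its ADP arrays alone, which set its direction, so it is not counted as a result and no fold is given. Of 6 measured complement regulators, 0 had an unadjusted p under 0.05 in limma, against 12.7% of all features (median -0.07), and Cd55, which encodes decay-accelerating factor, had the smallest p at a difference of -0.27 ± 0.13. Among 11 ITAM adaptors and partners 2 were higher and 0 lower at that p, against 6.55% and 6.18% of all features (median 0.11), led by the receptor gene Trem3 at 0.86 ± 0.16 (adjusted p = 0.260, limma). The ITAM adaptor gene Tyrobp, chosen after its values were seen, differed by 0.11 ± 0.17.

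Interferon gamma is known to raise Fcgr1 and Fcgr4, and of 9 measured genes of its receptor and signalling side 2 had an unadjusted p under 0.05, both of them lower, against 6.18% of all features that were lower, with a median of -0.18. Ifngr1, the receptor gene with the smallest p, differed by -0.37 ± 0.10 (limma, adjusted p = 0.279). Of 8 measured other Fc receptor and immunoglobulin carrier genes 0 were higher and 1 lower at that p, against 6.55% and 6.18% of all features (median 0.02), and that 1 was Trim21, the cytosolic antibody receptor gene, at -0.29 ± 0.12 (adjusted p = 0.380).

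Other cell types also carry Fc receptors, so markers of some of them are given beside Fcgr2b. The B cell receptor chain genes Cd79a and Cd79b were the B cell markers that passed the filter, and both were described after their values were seen. Cd79b was well above background on all 6 arrays and read 2.23, 2.35 and 2.32 in ADP 1, 2 and 3, against 2.60, 2.41 and 2.97 in controls 1, 2 and 3. Its groups did not overlap, as for 9.72% of all features that were lower without overlap, and its difference was -0.36 ± 0.16 (log2, SE; limma, adjusted p = 0.424). Cd79a read -4.29, -3.93 and -3.88 in ADP 1, 2 and 3, against -4.47, -5.26 and -3.57 in controls 1, 2 and 3. Its groups overlapped. The Cd79a probe was well above background on 3 ADP arrays but on only 2 control arrays. It passed the filter through its ADP arrays alone, so its difference is not counted as a result and no direction is given. Of 6 mast cell and basophil markers 4 were not well above background on any array, Fcer1a, Ms4a2, Cpa3 and Mcpt8. The summed signal of all 6, in multiples of the 75th percentile, was 0.130 to 0.167 with ADP and 0.213 to 0.271 in controls. Kit was the only one of the 6 that passed the filter. It read -3.63, -3.25 and -3.64 in ADP 1, 2 and 3, against -2.77, -3.19 and -2.41 in controls 1, 2 and 3. Its groups did not overlap, as for 9.72% of all features that were lower without overlap. For 9 neutrophil markers the sum was 26.2 to 31.8 with ADP and 22.6 to 24.4 in controls. Ngp, Retnlg and Cxcr2 were not well above background on any array. S100a8, the brightest of the 9, weighs most in that sum. It read 4.53, 4.67 and 4.82 in ADP 1, 2 and 3, against 4.32, 4.45 and 4.29 in controls 1, 2 and 3. S100a8 and Mpo were higher without overlap, as were 9.67% of all features, while Camp, Elane and S100a9 overlapped. For 6 dendritic cell markers the sum overlapped, at 36.6 to 158.7 with ADP and 36.7 to 139.7 in controls. Cd209a, Itgae and Xcr1 were not well above background on any array. Siglech, the brightest of the 6, makes up nearly all of that sum. It read 5.19, 7.31 and 7.26 in ADP 1, 2 and 3, against 5.48, 5.19 and 7.13 in controls 1, 2 and 3. Its arrays grouped by slide, higher on slide 2. The part of these cells in the Fcgr2b, Fcgr3 and Fcgr4 values was not tested.

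For each of the 9 genes the named gene with the most similar pattern over the 6 arrays was taken, by the root mean square difference of levels centred on their own mean, among 12516 candidates. The closest to Fcgr2b was Nt5c3, a pyrimidine nucleotidase gene, at 0.025 log2 units, and the closest to C3ar1 was Zfp992 at 0.049. Fcgr1 was nearest to Lrrc31 (0.059), Fcgr3 to Gramd4 (0.027), Fcgr4 to Commd6 (0.021) and Fcer1g to Tbc1d22b (0.017). C1qa was nearest to Htra4 (0.023), C1qb to Nop10 (0.011) and C1qc to Ptcd1 (0.015). Among the 9 themselves Fcgr2b was closest to C3ar1, at 0.19, and C1qb and C1qc were the closest pair, at 0.055. With that many candidates and 6 arrays, such matches are a description.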

How the data were processed

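RNA of 3 ADP-exposed and 3 control macrophage samples was measured on one-colour Agilent arrays, grouped and numbered by their titles. Per the file headers and the submitters' processing notes, the deposited intensity of each spot came from Agilent Feature Extraction 10.7.1.1, which corrected spatial trends and subtracted background within the array. These intensities, as the authors deposited them, carry no scaling across arrays, and spot flags (other columns) are those the authors deposited. The deposited value table was checked and matched the mean log2 processed intensity of each probe within 0.001 for 100% of 55681 probes on every array.

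Here, control spots and outlier-flagged spots were left out, spots of a probe were averaged, and log2 signals were taken relative to each array's 75th percentile. Probes well above background on all 3 arrays of a group were kept (26587), and each gene was represented by its brightest probe. Names were updated from RefSeq (GRCm38.p6, names alone). Groups were compared with limma 3.58.1 in R 4.3.3, with two-sided p-values and no block, adjusted over 19575 features. The fit was checked on simulated data. Samples were not paired by replicate number in the fit. Deviations of same-numbered samples correlated at 0.42, -0.40 and 0.43, where pairs 1 and 3 each lie on 1 slide and pair 2 spans both slides. Slide and pairing cannot be told apart in these correlations. The labels do not say that a number marks a shared donor. The 9 genes and the gene lists were chosen with earlier results of these data known. Named genes were the 9, the gene with the smallest p of each list, and the nearest pattern to each of the 9. Other genes named in the text were chosen after their values were seen. Alternatives changed the background correction, scaling, filter, probe rule, variance model, block and arrays included. The summed level of the B cell markers is not reported here.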

Additional observations from a re-analysis of the deposited data

How the results depend on the processing

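Fcgr2b and C3ar1 kept their lower direction in all 18 other fits run, from -0.63 to -0.43 for Fcgr2b and from -0.35 to -0.22 for C3ar1, and Fcgr1 stayed above 0, from 0.11 to 0.69. These fits are not 18 separate checks of direction, as each gene has 1 probe. Changes of filter and probe rule, trended, robust variances alone and the replicate block left the estimates unchanged, at -0.52 for Fcgr2b and -0.30 for C3ar1. The fits with the slide as a block also shared 1 estimate for each gene. The adjusted p of Fcgr2b ranged from 0.0243 to 0.832. It passed with the slide as a block and trended, robust variances (difference -0.56), the setting in which 1939 features passed in place of 0. Unadjusted p-values under 0.05 numbered 2492 over all features, 1554 without scaling, 4759 with the slide block, and 5111 with the slide block and trended, robust variances. With 1 array left out there were 1163 (without ADP 3) to 2982 (without ADP 1), with 1381 without control 1. The sign of C1qa turned with normexp background correction (-0.011), quantile normalization (-0.054) and median scaling (-0.021). Quantile normalization also turned Fcer1g (-0.12) and C1qb (-0.062), and no scaling turned C1qc (0.041). The cause was not tested.

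With 1 array left out, differences ranged from -0.029 to 0.12 for Fcgr3, -0.056 to 0.21 for Fcgr4, -0.0049 to 0.10 for Fcer1g and -0.082 to 0.065 for C1qa, each turning sign. C1qb ranged from 0.04 to 0.09, C1qc from -0.07 to -0.0094, C3ar1 from -0.35 to -0.23, Fcgr2b from -0.63 to -0.43 and Fcgr1 from 0.21 to 0.69. Within slide 1 differences moved by over 1 SD for Fcgr3 (0.22), C3ar1 (-0.46), C1qa (0.22), C1qb (0.14) and C1qc (0.035), and within slide 2 for C3ar1 (-0.16), C1qa (-0.16) and C1qb (-0.014). With the replicate block, Fcgr2b differed by -0.52 and 0 features passed at an adjusted p under 0.05 (2494 at an unadjusted p under 0.05).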
